A study of Homo sapiens with 41 samples.

Results

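Elongin A was mapped in DLD1 cells, a human colon cancer line, by CUT&RUN with a goat antibody, and 802 of the 8720 peaks on that list had their summit at or just downstream of a protein-coding transcription start site (TSS). That was 9.20% of the list (Wilson 95% interval 8.61 to 9.82, counting error only). A peak was taken when its summit lay from 100 bp upstream to 500 bp downstream of the nearest TSS of a protein-coding gene, counting every annotated transcript on hg19. The TSS also had to be one-way, meaning that no protein-coding gene on the opposite strand started within 1 kb upstream of it. The rule used positions only, so the height and width of the peaks and their overlap with other lists were not used to choose them.

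The goat antibody list was deposited as 1 list for 2 replicates of wild type cells without siRNA, called against 1 goat IgG library. The cells of all CUT&RUN and ChIP-seq samples were fixed with 1% formaldehyde. A pair of further lists from wild type DLD1 cells were used for comparison, a mouse antibody CUT&RUN list of 2338 peaks with 1 antibody and 1 mouse IgG library, and a ChIP-seq list of 186 peaks with 1 antibody and 1 input library. How the goat replicates were combined is not stated, no list gives read totals, and all intervals below cover counting over peaks or genes within 1 list and hold no error between replicates.

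Elongin A is the largest subunit of Elongin, a complex that raises the rate at which RNA polymerase II elongates in vitro. In cells, the authors found little effect of Elongin A loss on that rate. Elongin also joins a ubiquitin ligase that acts on stalled polymerase. In many human genes the polymerase pauses shortly after it starts, between a promoter region that is poor in nucleosomes and the first nucleosome of the gene. CUT&RUN releases the DNA around an antibody by cutting with a tethered nuclease, whereas ChIP-seq shears fixed chromatin and pulls the fragments down.

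The 5 peaks with the highest fold enrichment are shown first by sequence at their summits, since they are the clearest examples of where the signal was highest. Each stretch is GRCh37 (hg19) sequence on the strand of the gene, 5′ to 3′, and capitals mark the 21 bases centred on the summit. The MRPL54 stretch is chr19:3762683-3762774 on the plus strand and C12orf57 is chr12:7052852-7053009 on the plus strand. MYH9 is chr22:36766454-36766554, FBXO5 is chr6:153304616-153304645 and RPL3 is chr22:39712649-39712749, all on the minus strand.
MRPL54: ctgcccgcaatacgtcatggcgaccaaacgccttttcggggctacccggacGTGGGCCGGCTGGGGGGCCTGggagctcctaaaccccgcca
C12orf57: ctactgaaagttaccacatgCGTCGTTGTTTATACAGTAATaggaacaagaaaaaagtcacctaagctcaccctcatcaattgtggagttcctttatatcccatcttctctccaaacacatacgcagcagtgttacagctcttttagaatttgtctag
MYH9: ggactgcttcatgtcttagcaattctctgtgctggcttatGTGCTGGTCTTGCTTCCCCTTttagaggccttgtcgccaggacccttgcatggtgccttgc
FBXO5: ggacgAGCCGAGTTGCTGCTCACCGAactc
RPL3: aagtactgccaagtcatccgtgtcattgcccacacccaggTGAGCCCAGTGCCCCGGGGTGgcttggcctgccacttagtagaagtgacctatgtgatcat

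The first base of MRPL54 transcription at the nearest TSS is base 21 of its stretch. The C12orf57 summit lay upstream of its TSS, which is base 129 of the stretch shown.

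The last stretches show short promoter motifs that are counted further below, and here the capitals mark the motif on either strand. For MRPL54 (chr19:3762639-3762685, plus strand) and RPL32 (chr3:12883089-12883135, minus strand) it is the ETS site. For MIS18A (chr21:33651442-33651489, minus strand) it is the NRF1 site, which there lies on both strands with overlap. For SZRD1 (chr1:16693730-16693776, plus strand) it is the YY1 site.
MRPL54 promoter: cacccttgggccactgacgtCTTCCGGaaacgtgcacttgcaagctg
RPL32 promoter: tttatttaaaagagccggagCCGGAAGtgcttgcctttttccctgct
MIS18A promoter: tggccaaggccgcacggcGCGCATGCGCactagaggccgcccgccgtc
SZRD1 promoter: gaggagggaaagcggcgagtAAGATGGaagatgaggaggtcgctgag

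The match began 21 bp upstream of the canonical start in MRPL54 and 51 bp upstream in RPL32. It began 109 bp upstream in MIS18A and 13 bp downstream in SZRD1.

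The 802 peaks belonged to 743 genes, which is 3.81% of the 19498 protein-coding genes with at least 1 one-way TSS. Most genes had a single peak of this kind: 695 had 1, 39 had 2, 7 had 3 and 2 had 4. TRA2B, a splicing regulator, and HOXB3, a homeobox transcription factor, each had 4 at different transcript starts. Only FBRS had 2 peaks at the same TSS, with summits 113 and 464 bp downstream and fold enrichments of 2.90 and 4.68. A mouse antibody peak overlapped the second of these, with its summit 6 bp further downstream.

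Summits were placed mainly over the first bases of the transcript. The median summit lay 101.5 bp downstream of the TSS (95% interval of the median 87 to 111, n = 802), and the middle 50% of summits spanned 18 to 194.75 bp. Of the 802 summits, 154 (19.2%) lay upstream of the TSS, 243 (30.3%) within the first 100 bp downstream and 207 (25.8%) within the next 100 bp. A further 97 lay from 200 to 299 bp, 51 from 300 to 399 bp and 50 from 400 to 500 bp downstream. The window itself reaches further downstream than upstream, so the excess of downstream summits is in part set by the rule. Each summit was placed from its nearest TSS, so the fall in number beyond 200 bp may be set in part by the rule too. That part was not tested. A fall was also seen with only the Ensembl canonical start of each gene. Summits of the goat list per 100 bp were then 93 in the first 200 bp downstream and 33.5 from 200 to 399 bp.

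Most of the peaks belonged to the downstream of 2 groups of summits that flank the TSS, and 154 lay in the dip between these groups. Around one-way TSSs the goat list had 448 summits from 300 to 101 bp upstream, 154 in the 100 bp just upstream and 450 in the 200 bp from the TSS downstream. Per 100 bp these were 224, 154 and 225 summits, against 74 from 200 to 399 bp downstream. The dip between the groups was deeper when only the Ensembl canonical start of each gene was used, with 155.5, 26 and 93 summits per 100 bp. In that version the downstream group was smaller than the upstream group, while with all transcript starts the groups were of like size.

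**Figure D1:**
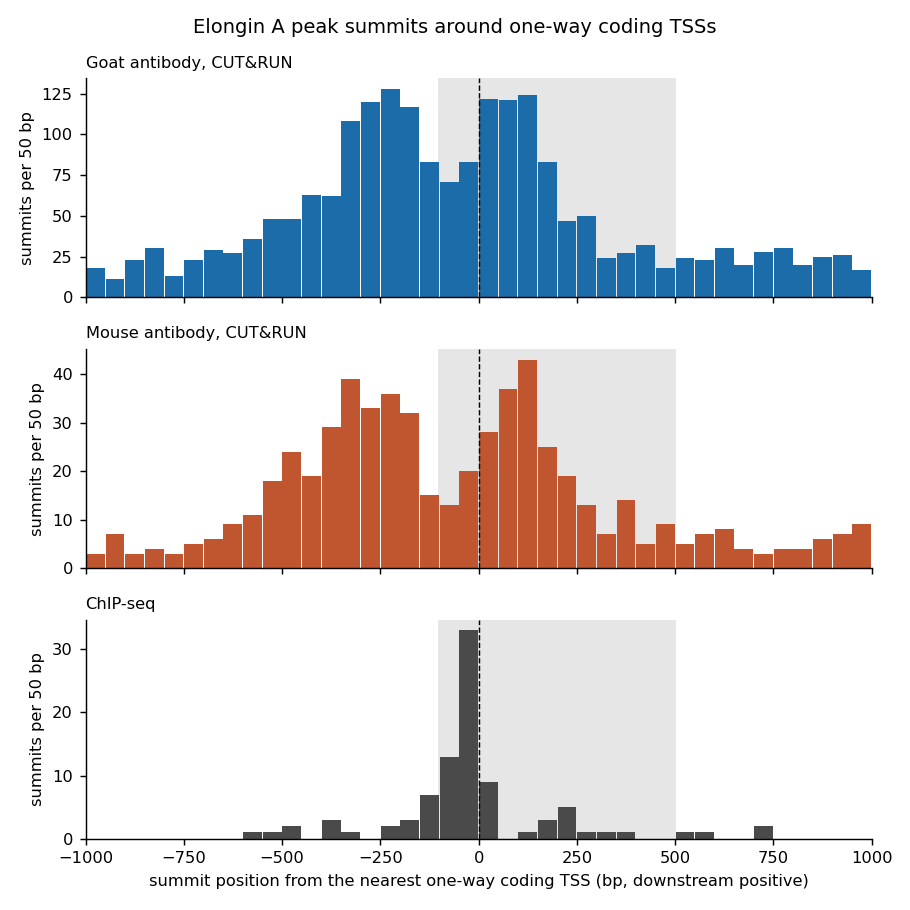
Peak summits per 50 bp (vertical axis) against their position from the nearest one-way coding TSS in bp (horizontal axis, downstream positive) for the goat antibody, mouse antibody and ChIP-seq lists, with the window of the 802 peaks in grey and the TSS as a dashed line. Both CUT&RUN lists have a group of summits on each side of a dip just upstream of the TSS, and the ChIP-seq summits are most frequent in the 50 bp just upstream.

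The other lists gave a separate view of the same window. The mouse antibody list had 233 of its 2338 summits there (9.97%, Wilson interval 8.82 to 11.2), with a median 115 bp downstream and quartiles at 44 and 228 bp. Its summits also dipped just upstream of the TSS, with 58 per 100 bp from 300 to 101 bp upstream, 33 in the 100 bp just upstream and 66.5 in the 200 bp downstream. At canonical starts the same 3 values were 37, 9 and 33. The ChIP-seq list had 67 of 186 summits in the window (36.0%, Wilson interval 29.5 to 43.1), but its median lay at -16 bp, with quartiles at -37 and 12.5 bp. At canonical starts it had 40 summits in the 100 bp just upstream of the TSS, where the goat list had 26 and the mouse list 9. The ChIP-seq and CUT&RUN lists differ in assay, control and number of peaks, and the parts of these in the difference cannot be told apart.

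The width of the peaks was enough for most of them to cross the TSS. Their median width was 364 bp (interval 350 to 380), with quartiles at 256.25 and 540 bp and extremes of 210 and 5060 bp. The TSS lay inside 521 of the 802 peaks (65.0%, Wilson interval 61.6 to 68.2), 265 peaks (33.0%) began downstream of it and 16 ended upstream of it. The median peak ran from 67 bp upstream to 286 bp downstream. A further share of 19.8% (159 peaks) extended beyond 500 bp downstream, and 47 peaks began more than 500 bp upstream.

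Higher peaks crossed the TSS more often. When the peaks were ranked by fold enrichment into 4 groups of nearly equal size, the share that covered the TSS was 76.5% in the highest group and 61.9%, 59.3% and 62.2% in the lower groups, from the lowest up. The highest group was also wider, with a median of 434 bp against 350.5, 354 and 350 bp, and the part of width in the crossing was not tested. Coverage was highest 80 bp downstream of the TSS over all peaks, where 75.9% of them overlapped that base. In the highest group it was highest 90 bp downstream, at 86.0%. Summit position and fold enrichment were almost unrelated across the 802 peaks (Spearman's rho -0.0139), and width rose only weakly with fold enrichment (rho 0.122), as a description over peaks of 1 list that share their libraries.

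**Figure D2:**
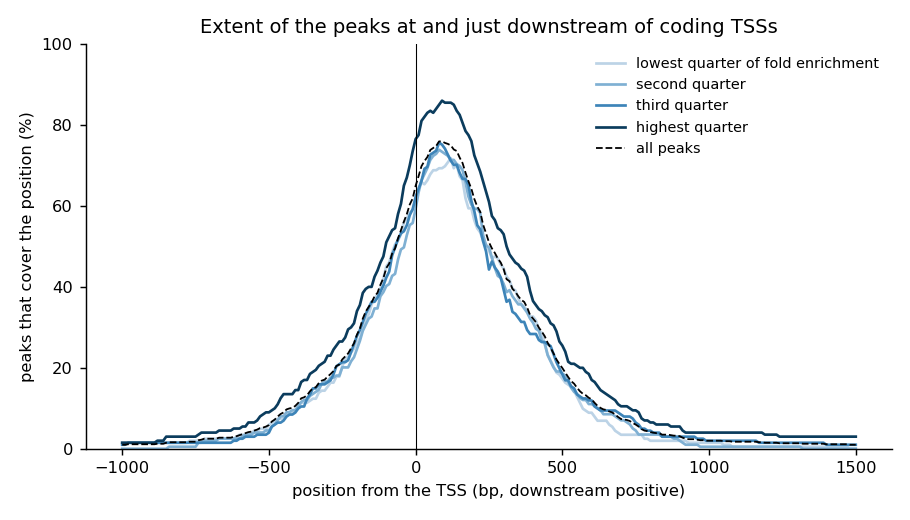
Share of the 802 peaks that cover each position (vertical axis, percent) against the distance from the TSS in bp (horizontal axis, downstream positive), for each of 4 groups ranked by fold enrichment and, dashed, for all peaks. The curve of the highest group lies above the others at the TSS, with 76.5% of its peaks covering it, and all curves are highest about 100 bp downstream.

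Relative to the transcript that starts at the nearest TSS, 269 summits (33.5%) lay in an intron and 190 (23.7%) in an exon of the 5′ UTR. Another 132 (16.5%) were in an exon of a transcript without coding sequence, 55 (6.86%) in coding sequence, 2 in a 3′ UTR exon and the remaining 154 upstream. The first exons were short, with a median of 156.5 bp over the 802 peaks. Of the 648 summits downstream of the TSS, 376 (58.0%) lay within the first exon. A long noncoding RNA started on the opposite strand within 1 kb upstream for 100 of the 802 peaks (12.5%), since the one-way rule considered coding genes only. The share over all one-way starts was not counted, so whether 12.5% is usual is unknown.

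Fold enrichment over IgG at the summit, the ratio given by the peak caller, had a median of 4.35 (interval 4.27 to 4.47), quartiles at 3.57 and 5.22, and extremes of 2.21 and 13.1. The distribution was close to that of the rest of the goat list. Medians were 4.32 for 987 peaks from 101 to 1000 bp upstream of a one-way TSS, 4.33 for 203 peaks in the same window at a two-way TSS, and 4.32 for the other 6728 peaks. A fold enrichment of 5 or more was reached by 30.2% of the 802 peaks, 30.1% of the upstream peaks, 61 of the 203 peaks at two-way TSSs and 30.1% of the others. The difference from the upstream peaks was 0.0834 percentage points (Newcombe interval -4.17 to 4.37). The highest single value was 13.1, against 43.6 upstream, 25.7 at two-way TSSs and 21.2 among the other peaks.

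MRPL54, which encodes a protein of the mitochondrial ribosome, had the highest fold enrichment, 13.1, in a peak at chr19:3762311-3763297 whose summit lay 41 bp downstream of the TSS in coding sequence. The next was C12orf57 at 11.9 (chr12:7052357-7054607), with its summit 98 bp upstream of an alternative start. That peak also holds the gene of the U7 small nuclear RNA, RNU7-1, and a peak of 2251 bp cannot be assigned to one of these genes. MYH9, the heavy chain of nonmuscle myosin IIA, had a fold enrichment of 11.6 at a start 17357 bp from the canonical one, with the summit 151 bp into the transcript in an intron. A mouse antibody peak of 4.24-fold lay there as well, with its summit 34 bp further downstream.

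FBXO5, an inhibitor of the ubiquitin ligase that drives mitotic exit, reached 11.3 in a 5′ UTR exon 84 bp downstream. RPL3, a protein of the large cytosolic ribosomal subunit, reached 10.9 in an intron, 374 bp downstream of an alternative start. GET1, part of the receptor that inserts tail-anchored proteins into the endoplasmic reticulum, had 10.6 in a peak of 377 bp that began 16 bp downstream of the TSS. These were the only 6 of the 802 peaks to reach a fold enrichment of 10 (0.748%, Wilson interval 0.343 to 1.62). The share was 1.72% among the upstream peaks (1.08 to 2.74), 2.46% at two-way TSSs (1.06 to 5.64) and 0.758% among the other peaks.

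The remaining 6 of the strongest 12 covered several cell functions. TBCD, a tubulin folding cofactor, had 9.99 in a narrow peak of 247 bp. SFPQ, a splicing and transcription factor, had 9.82 with the summit 96 bp upstream of the TSS and 7 further peaks in the gene. XPOT, the export receptor for tRNA, had 9.54 and EFNA1, an ephrin ligand, 9.36, and both peaks began downstream of the TSS. EEF1A1, the factor that brings tRNA to the ribosome, had 9.19 in a peak of 2364 bp, and HNRNPA1, an abundant nuclear RNA-binding protein, 9.13 in a peak of 3467 bp. Mouse antibody peaks overlapped the last pair, with fold enrichments of 3.89 and 5.12. The HNRNPA1 start lay 5521 bp from the canonical one. Its peak, chr12:54678923-54682389, ran past the annotated gene end at 54680872, so position does not separate start from end there. At the other end of the list were SNRPG, a core spliceosome protein, at 2.28, and GTPBP1, a GTP-binding protein, at 2.21. The SNRPG peak was overlapped by a mouse antibody peak of 5.14-fold.

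**Figure D3:**
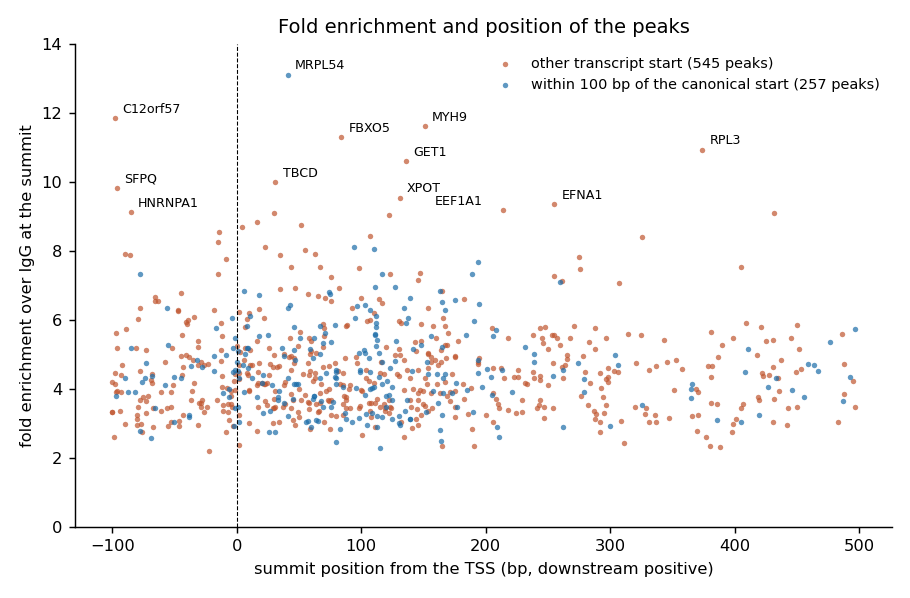
Fold enrichment over IgG at the summit (vertical axis) against the summit position from the TSS in bp (horizontal axis, downstream positive) for each of the 802 peaks, coloured by whether the TSS lies within 100 bp of the canonical start of its gene, with the 12 highest named. Of these 12, only MRPL54 is at a canonical start, and the remaining points lie mostly between 3 and 6 at every position.

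Most of the peaks lay near starts other than the main one annotated for the gene. The nearest TSS was within 100 bp of the Ensembl canonical start for 257 peaks (Wilson interval of the share 28.9 to 35.4%), and 545 were at other starts. Of the 544 whose gene has a canonical transcript, 360 were at starts downstream of the canonical one and 184 at starts upstream of it. Their median distance from it was 1250 bp, with 253 within 1 kb and 141 more than 10 kb away. Genes with many annotated transcripts offer more windows to the rule: genes with a peak had a median of 9 one-way TSSs and genes without a peak 5.

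Peaks at the 2 kinds of start had like heights and median positions, and differed in the spread of their summits and in base composition. The median summit was 102 bp downstream at canonical starts and 101 bp at other starts. Median fold enrichment was 4.34 at canonical starts and 4.35 at other starts, and median width was 347 bp (interval 319 to 372) and 371 bp (353 to 393). The first 200 bp downstream held the summit for 68.9% of peaks at canonical starts (Wilson interval 63.0 to 74.2) and for 50.1% at other starts (45.9 to 54.3). At other starts more summits lay 200 to 500 bp downstream, 28.6% against 16.3%, and more in the 100 bp upstream, 21.3% against 14.8%. Coding sequence held 15.6% of summits at canonical starts and 2.75% at other starts. The 201 bp around the summit had a median GC content of 61.7% at canonical starts (interval 60.7 to 62.7) and 52.7% at other starts (51.2 to 54.2). The CpG ratio, the observed number of CpG dinucleotides over that expected from the base content, was 0.755 and 0.475.

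Over all 802 peaks the median GC content was 56.2% and the CpG ratio 0.580. These values were 51.2% and 0.515 for the upstream peaks, 57.2% and 0.752 for the peaks at two-way TSSs and 42.3% and 0.192 for the other peaks. Sequence present more than once in the genome was rare, as the 32 bp centred on the summit occurred elsewhere as well for 7 of the 802 peaks (0.873%), against 3.80% of the other peaks. Those 7 were at PPP1R1C, MCRIP2, NUP58, RPS29, SRSF10, PNRC2 and EHMT1, named here after their values were seen. Their values are uncertain, since reads may fit another of the 2 to 10 copies, which was not tested.

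A mouse antibody peak overlapped 55 of the 802 peaks (6.86%, Wilson interval 5.31 to 8.82). The share was 10.9% among the upstream peaks, a difference of -4.08 percentage points (Newcombe interval -6.70 to -1.42). At two-way TSSs it was 11.8%, a difference of -4.96 points (-10.4 to -0.734). Against the other peaks, at 8.01%, the difference of -1.15 points had an interval of -2.84 to 0.906 that includes 0. Among the 55 overlapping pairs, 35 had summits within 100 bp of each other and the median separation was 49 bp. Only overlapping peaks were paired, with the nearest mouse summit taken, so short separations are in part set by the rule.

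At the level of genes, 230 genes had a mouse antibody summit in the window, which is 1.18% of the eligible genes, and 56 of them were also among the 743. This is 7.54% of the 743 genes (Wilson interval 5.85 to 9.66) and 24.3% of the 230. The ChIP-seq list gave 67 genes with a summit in the window, 0.344% of the eligible genes, and 12 of them were among the 743, which is 1.62% of the 743 and 17.9% of the 67. Where a gene has several starts, the shared gene may have its summits at different ones.

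ChIP-seq peaks overlapped 12 of the 802 peaks (Wilson interval of the share 0.858 to 2.60%), against 0.728% of the other peaks, a difference of 0.768 percentage points (Newcombe interval 0.0884 to 1.88). The differences from the upstream peaks (0.787 points, -0.196 to 1.95) and from the peaks at two-way TSSs (-0.967 points, -4.20 to 0.819) had intervals that include 0. Replication-dependent histone genes accounted for 3 of the 12, H1-3, H4C4 and H3C2, beside 11 of all 802 peaks. The other ChIP-seq overlaps were at WDR74, HOXB5, HOXB6, TMBIM4, LSM5, KDM8, TSHZ1, FLOT1 and WDR13.

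Both other lists overlapped the peaks of 3 genes. The first was at WDR74, a ribosome assembly factor, in a peak at chr11:62606945-62609792 that also holds the U2 small nuclear RNA gene RNU2-2P. Its fold enrichment was 9.10 with the goat antibody, 8.72 with the mouse antibody and 47.1 in ChIP-seq. The ChIP-seq summit lay 188 bp upstream of the goat summit in the direction of WDR74. At KDM8, a JmjC domain protein, the values were 4.23, 3.07 and 19.7, and the ChIP-seq summit lay 141 bp upstream of the goat summit. HOXB6, a homeobox transcription factor, had 4.79, 5.58 and 5.94, with the ChIP-seq summit 217 bp downstream.

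An snRNA or snoRNA gene lay inside 10 of the 802 peaks (1.25%), against 11 of the 987 upstream peaks (1.11%, difference 0.132 points, Newcombe interval -0.907 to 1.28) and none of the 203 at two-way TSSs (difference 1.25 points, -0.695 to 2.28). The share was 0.476% among the other peaks (difference 0.771 points, 0.171 to 1.81). The intervals of the differences from both promoter groups include 0. These small RNAs guide or carry out the processing of other RNAs, and many snoRNA genes lie in introns of host genes. The hosts or neighbours were RPS13, RPL21, RPL17, RPL13A, RPL3, RPL37, EIF4A2, MATR3, WDR74 and C12orf57. Cytosolic ribosomal protein genes were thus 6 of the 10, beside 31 of all 802 peaks. For the 10 peaks the small RNA gene and the coding transcript cannot be told apart by position.

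Of 84 cytosolic ribosomal protein genes with a one-way TSS, 22 had a peak in the window (26.2%, Wilson interval 18.0 to 36.5), beside 3.81% of all eligible genes. After RPL3, the highest were RPL32 at 7.34, with its summit 78 bp upstream of the TSS, and RPL13A at 6.55, whose peak holds the snoRNA gene SNORD32A. Their 31 peaks had a median fold enrichment of 4.53 and a median summit 111 bp downstream. Mitochondrial ribosomal protein genes had 5 of 65 (7.69%), with an interval of 3.33 to 16.8 that holds the share of all genes, and MRPS22 at 5.77 followed MRPL54. Among genes with initiation and elongation factor symbols the count was 11 of 71 (15.5%, 8.88 to 25.7), and with basic transcripts only the share was 9.23%, beside 2.72% of all genes under that choice. EEF2, the translocation factor, had 9.04 and EIF4A2, an RNA helicase of initiation, 6.60 in a peak that holds SNORD2.

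RNA-binding and splicing proteins gave like shares. Peaks were found at 7 of 26 genes for hnRNP proteins (26.9%, Wilson interval 13.7 to 46.1), which bind nascent RNA. Behind HNRNPA1 came PTBP1, a repressor of exon inclusion, at 6.34 and HNRNPH3 at 6.21. SR and core splicing factor genes had 9 of 39 (23.1%, 12.6 to 38.3), led by SNRPE at 5.88 and by SRSF7, which had 1 peak of 5.83 and another of 5.75 at different starts. For this last list the share fell to 12.1% when only basic transcripts were used, and that of the cytosolic ribosomal protein genes to 16.0%.

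Replication-dependent histone genes, which have no introns and mostly 1 transcript, had 11 of 43 (25.6%, Wilson interval 14.9 to 40.2). H1-3 had 8.06, H4C3 7.34 and H4C4 7.11, with summits 110, 189 and 260 bp downstream, inside coding sequence. Histone genes resemble each other closely, but the 32 bp at these summits occur once in the genome. Immediate early and stress response genes had 8 of 30 (26.7%, 14.2 to 44.4). MYC, a transcription factor that promotes growth, had 7.77 with its summit 9 bp upstream of an alternative start, JUNB, an AP-1 subunit, 6.47, and MCL1, a survival factor, 5.57. The other 5 were DUSP1, IER2, GADD45B, ATF4 and JUN.

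Of the RNA polymerase II subunit and elongation factor genes, 4 of 39 had a peak (10.3%, Wilson interval 4.06 to 23.6). HEXIM1, an inhibitor of the elongation kinase P-TEFb, had 4.32, and CCNT1, the cyclin of P-TEFb, had 4.13. SUPT4H1, a subunit of the pausing factor DSIF, had 4.19, and the fourth gene was POLR2B, a polymerase subunit. The mouse antibody also gave peaks at SUPT4H1 and CCNT1, with summits 47 and 20 bp upstream of the goat summits and fold enrichments of 3.55 and 5.37.

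For metabolic and structural genes the intervals were wide and overlapped. Glycolysis enzymes had 4 of 17 (23.5%, Wilson interval 9.56 to 47.3), a share that fell to 6.25% with basic transcripts only. The peaks of TPI1 at 6.36, PKM at 5.18 and LDHA at 3.47 all had summits upstream of starts at least 1715 bp from the canonical one. Chaperones had 9 of 67 (13.4%, 7.23 to 23.6), led by DNAJC4 at 6.63, DNAJC19 at 5.48 and HSP90AB1 at 5.40. Actins and tubulins had 2 of 14 (14.3%, 4.01 to 39.9), ACTG1 at 5.52 and TUBB3 at 3.68. Proteasome subunits had 3 of 37 (8.11%, 2.80 to 21.3), PSMA1, PSMC6 and PSMC2, with fold enrichments from 4.15 to 4.49. Oxidative phosphorylation had 3 of 73 (4.11%, 1.41 to 11.4), a share near that of all genes, and the highest were UQCRB at 6.30 and NDUFC1 at 5.90.

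Zinc finger genes with ZNF symbols, at 19 of 487 (3.90%, Wilson interval 2.51 to 6.01), were also at the share of all genes. The highest of them were ZNF451 at 6.82, ZNF580 at 6.26 and ZNF771 at 6.09. Of 16 WNT target genes, SOX9, a transcription factor of the intestinal crypt, alone had a peak, of 6.82-fold (6.25%, Wilson interval 1.11 to 28.3). Among 20 colon epithelial genes there were 2 (10%, 2.79 to 30.1). These were GPA33, a surface antigen of the intestine, at 4.89, and KLF5, an epithelial transcription factor, at 2.35. None of 29 marker genes of other lineages had one (Wilson interval 0 to 11.7%). The intervals of the WNT, colon and other lineage lists each hold the share of all genes, 3.81%. These counts concern peaks at starts, and the level of the genes in the cells was not measured here.

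**Figure D4:**
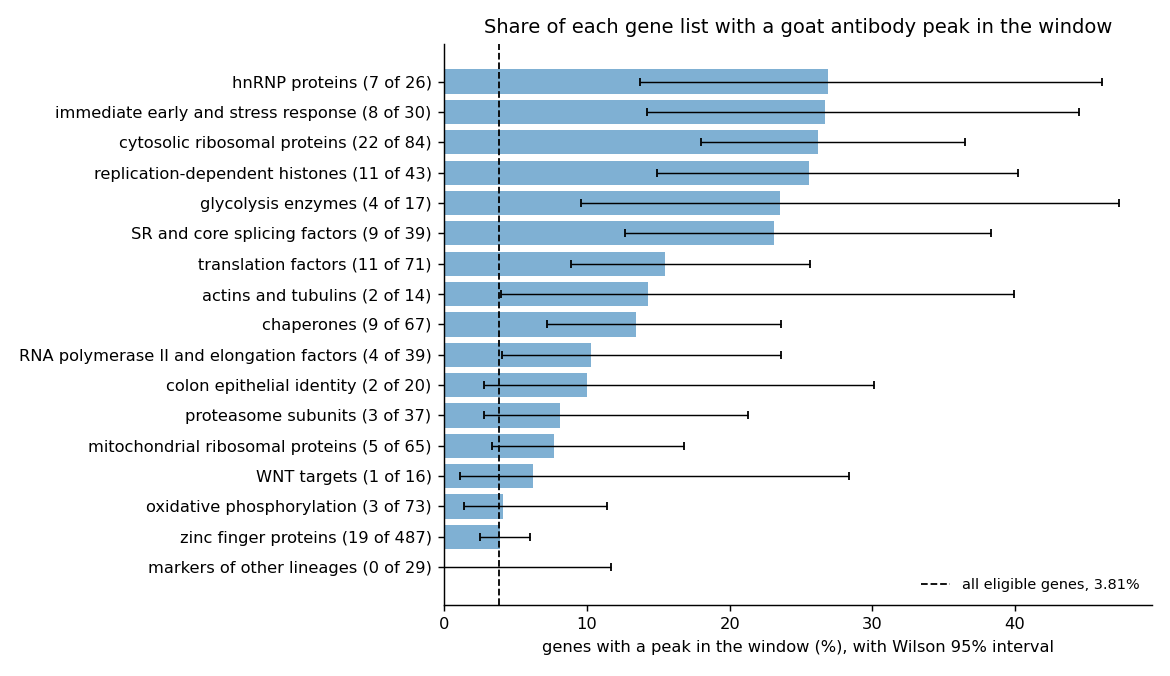
Share of the genes of each list that have a peak in the window (horizontal axis, percent) as bars with Wilson 95% intervals, with the counts beside each name and the share over all eligible genes, 3.81%, as a dashed line. The hnRNP, immediate early, cytosolic ribosomal protein, histone, glycolysis and splicing lists lie at 23.1% or more, and the zinc finger and oxidative phosphorylation lists lie at the line.

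The number of annotated starts per gene differed between the lists, from a median of 1 one-way TSS for histone genes to 14 for glycolysis enzymes, so the lists were also counted at the canonical start alone. A peak from among the 802 had its summit in the window of 293 of 17356 one-way canonical starts, or 1.69%. On that basis the histone genes had 9 of 42 (21.4%), the immediate early genes 5 of 27 (18.5%), the splicing factors 4 of 31 (12.9%), the cytosolic ribosomal protein genes 8 of 69 (11.6%) and the polymerase and elongation factor genes 3 of 29 (10.3%). The mitochondrial ribosomal protein genes had 4 of 49 (8.16%), the translation factors 3 of 57 (5.26%), the hnRNP genes 1 of 21 (4.76%), the chaperones 2 of 51 (3.92%), and glycolysis enzymes, actins and tubulins and colon epithelial genes had none of 16, 13 and 20. Oxidative phosphorylation had 3 of 57 (5.26%), proteasome subunits 2 of 31 (6.45%), zinc finger genes 10 of 446 (2.24%) and WNT targets 1 of 16 (6.25%). Markers of other lineages had none of 29. Over all starts, the shares of translation factor, hnRNP, chaperone and glycolysis genes came mostly from alternative starts. The same held for actins and tubulins and for colon epithelial genes. Cytosolic ribosomal protein genes fell from 22 over all starts to 8 at the canonical start, and splicing factor genes from 9 to 4.

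Genes with a peak at the start more often had another one further in. A goat summit lay beyond 500 bp from the TSS and up to 1 kb past the end in 233 of the 743 genes (31.4%, Wilson interval 28.1 to 34.8). At canonical starts this was 72 of 293 genes (24.6%) with a peak in the window and 2476 of 17063 (14.5%) without, a difference of 10.1 percentage points (Newcombe interval 5.45 to 15.3). The groups had nearly equal gene lengths, with medians of 28.1 and 28.2 kb. Under 5 kb the shares were 27.8% (10 of 36 genes) and 3.86%, from 5 to 20 kb 21.1% and 7.55%, from 20 to 100 kb 21.3% and 14.4%, and over 100 kb 16 of 40 genes and 32.2%. The interval of the longest class with a peak, 26.3 to 55.4%, includes the share without one.

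A set of 12 short motifs was searched by exact letters on both strands from 250 bp upstream to 50 bp downstream of the canonical starts. The ETS site CCGGAAG was found in 24.6% of the 293 starts with a peak and 11.9% of the 17063 without, a difference of 12.7 percentage points (Newcombe interval 8.08 to 17.9), and in 12.1% of all. The NRF1 site GCATGCGC was at 9.56% and 3.71% (3.81% of all), a difference of 5.85 points (2.97 to 9.76). The YY1 site AAGATGG, which contains an ATG, was at 12.3% and 5.78% (5.89% of all), a difference of 6.50 points (3.20 to 10.8). The core of the ZBTB33 site, TCTCGCG, was at 8.53% and 4.49% (4.56% of all), a difference of 4.04 points (1.34 to 7.81).

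The remaining motifs differed less in this window, and most of their intervals of the difference include 0. The cyclic AMP response element TGACGTCA was at 4.44% with a peak and 2.49% without (2.52% of all, difference 1.95 points, Newcombe interval 0.104 to 4.96). The E box CACGTG was at 11.9% and 8.46% (8.52% of all, 3.48 points, 0.225 to 7.72). The GC box GGGCGG was at 59.7% and 59.6% (59.6% of all), the NF-Y site CCAAT at 38.6% and 35.5% (35.5% of all) and the TBP site TATAAA at 12.3% and 10.4% (10.5% of all), with intervals of the difference that include 0. In the wider window of 500 bp either side the GC box differed, at 83.3% and 74.6% (8.71 points, 3.97 to 12.6). An interval that includes 0 in the narrower window was also found for the AP-1 site TGACTCA at 2.39% and 3.82% (3.79% of all), for the ZNF143 core ACTACAATT at 1.02% and 0.352% (0.363% of all) and for the TCF site CTTTGATC, found in none of the 293 and in 0.428% without (0.421% of all).

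Starts with a peak only from 101 to 1000 bp upstream gave a second reference, since they too are bound near the promoter. Over 772 such starts the ETS site was at 19.0% (Wilson interval 16.4 to 22.0), the NRF1 site at 6.99%, the YY1 site at 9.07% and the ZBTB33 core at 7.64%. Each of these lies between the share at starts with a peak in the window and that at the remaining 16291 starts, of which 11.5% held the ETS site. The GC box went the other way, at 71.6% (68.4 to 74.7) of the starts with an upstream peak and 59.7% (54.0 to 65.2) of those with a peak in the window. CpG content also differed, with a median promoter CpG ratio of 0.817 at starts with a peak in the window and 0.752 without, while GC content was lower, 59.7% (interval 59.0 to 61.7) against 63.3% (63.0 to 63.7). Among promoters with a ratio of at least 0.6, a limit chosen after the data were seen, the ETS site was at 28.0% of 232 with a peak and 16.7% of 10891 without. The GC box was then at 65.9% and 80.3%.

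ETS and YY1 matches lay close to the start in both groups. Of 91 ETS matches at starts with a peak, 60 (65.9%) began from 60 bp upstream to 40 bp downstream, with a median 32 bp upstream, and without a peak 60.0% of 2410 did. Of 40 YY1 matches, 26 (65.0%) were in that range, against 57.1% of 1028 without a peak. A match gives the letters in the reference sequence and does not show that a factor was bound.

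**Figure D5:**
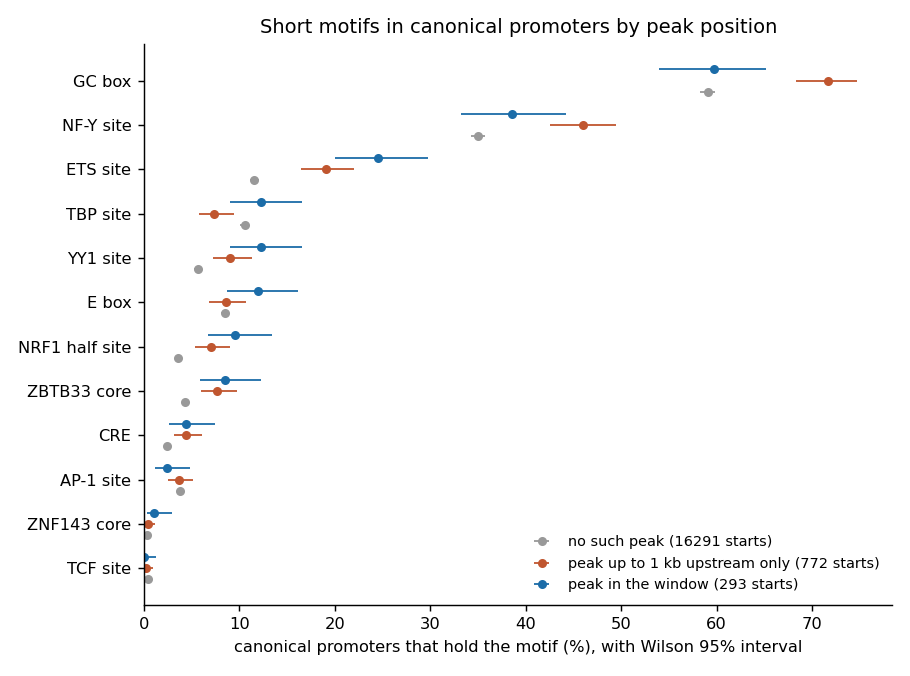
Share of canonical promoters that hold each motif (horizontal axis, percent) with Wilson 95% intervals, for starts with a peak in the window, starts with a peak only upstream and the other starts. The ETS, NRF1 and YY1 points of starts with a peak in the window lie to the right of those of the other starts, and the GC box is highest at starts with an upstream peak only.

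Few summits lay at the edges of the window, too few to show whether the values changed abruptly there. The 17 summits from 100 to 91 bp upstream had a median fold enrichment of 4.15, and the 13 just outside, from 110 to 101 bp upstream, 4.75. The 4 summits from 491 to 500 bp downstream had a median of 4.28, and the 3 from 501 to 510 bp 3.81.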

How the data were processed

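Elongin A CUT&RUN was done with a goat antibody in 2 replicates and with a mouse antibody in 1 sample, and ChIP-seq in 1 sample, each with 1 control library. Each list is the authors' MACS2 output at default settings, from hg19 alignments (Bowtie2) without PCR duplicates (Picard). The deposited fold enrichment is a ratio of the summit to the control around it. The q-value was deposited by the authors as −log10, and the score deposited beside it is the same value times 10 in whole numbers and was not used. Fold enrichments were compared within a list only. The lists hold no read totals, so depth is unknown.

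Summits were placed relative to 146580 TSSs of 20149 protein-coding genes (GENCODE release 44 lifted to GRCh37), of which 131568 (89.8%) were one-way. At 1 summit equally near to 2 TSSs, the lower coordinate was taken. The canonical start is that of the Ensembl canonical transcript. Overlap meant at least 1 bp. Medians carry order-statistic intervals, shares Wilson intervals and differences Newcombe intervals, at a level of 95%. Since peaks of 1 list are not replicates, no test across samples was possible and no p-value is given. Genes named are the 12 highest and 2 lowest peaks, those overlapped by both other lists, those with 2 peaks at 1 TSS and up to 3 of each gene list. Other names were chosen after their values were seen. The members, gene lists and motifs were chosen with earlier results of these data known. Methods were tested on simulated peaks. Python 3.11.15, numpy 2.4.6, scipy 1.17.1, pandas 2.3.3, pysam 0.24.0, samtools 1.23.1 and matplotlib 3.10.9 were used. The RNA-seq, 4sU-seq and polymerase ChIP-seq samples were not analysed here.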

Additional observations from a re-analysis of the deposited data

How the results depend on the processing

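No paired analysis was possible because the goat antibody replicates share 1 list and no result comes from a test, and for the same reason leaving out each replicate was not run. The comparison of settings covers 9 values, and the cause of each shift below was not tested beyond the peaks or transcripts each setting removes. Median fold enrichment rose from 4.35 to 4.53 and 4.76 with a q-value under 0.01 and under 0.001, and the median width to 381 bp under the latter. With a fold enrichment of at least 5 there were 242 peaks in 233 genes, with medians of 5.85-fold and 421 bp, and 74.8% covered the TSS. Of these genes 18.9% had a further peak, but further peaks were then also limited to a fold enrichment of at least 5. The share that covered the TSS was 60.2% with transcripts of the protein-coding type, 58.2% with basic transcripts, 71.7% for summits up to 300 bp downstream and 70.5% with peak centres. Basic transcripts left 512 peaks, with a median summit at 116 bp, and the limit of 300 bp moved that median to 78 bp. With canonical transcripts only, a choice made after the data were seen, there were 335 peaks in 334 genes, a median summit at 138 bp, 46.3% that covered the TSS and 25.1% of genes with a further peak. Overlap with the mouse list fell to 4.99% for summits within 200 bp and to 4.36% for mouse peaks with a q-value under 0.001. ChIP-seq overlap fell to 0.748% when 50% of the smaller peak had to be shared. The other 90 values of these settings stayed within the interval of the reported value or, for counts, within 1.5 times. Motifs searched over 500 bp either side were more frequent in both groups, with the ETS site at 38.2% and 19.6%, and the interval of the GC box difference no longer included 0. Unknown depth and 1 pooled list limit all values.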
